A study of Drosophila melanogaster with 8 samples.

Results

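Odorant-binding proteins are small secreted carriers of hydrophobic molecules, and 40 of the 13781 gene symbols in a count table of Drosophila melanogaster heads belong to their genes. They were taken by name alone, as every symbol made of "Obp", a number and lower-case letters. The later Release 6 annotation lists 52 genes of the family, of which 51 carry such a symbol, and 11 of those were not analysed here. The remaining one, lush, does not match the rule, and its values stand beside the antennal members. Of the 40 members, 7 are known from antennal sensilla (Obp19a, Obp28a, Obp59a, Obp69a, Obp83a, Obp83b and Obp84a), and the other 33 are known from taste organs, reproductive glands, fat body, glia or several places, or have no assigned place here.

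In olfactory and taste sensilla, support cells secrete odorant-binding proteins into the lymph that bathes the dendrites of the sensory neurons, where the proteins bind, carry or buffer odorants, pheromones and tastants. Many members are also made outside sense organs, where they are thought to carry lipids or other small hydrophobic ligands in haemolymph, brain or seminal fluid. Most genes of the family lie in clusters of neighbours, and here 25 of the 40 sit next to another Obp gene. Chromosome arm 2R holds 21 members, 3R holds 11, X holds 6, and 2L and 3L hold 1 each.

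The libraries were 3′ RNA-seq of whole heads in 3 genotypes: Actin-gal4/+; UAS-rowRNAi1/+ (row_RNAi1, 2 libraries), Actin-gal4/+; UAS-rowRNAi2/+ (row_RNAi2, 3 libraries) and Actin-gal4/+ alone (control, 3 libraries). All flies therefore carried the Gal4 driver, a yeast transcription factor under the broadly active Actin promoter, and both knockdown lines also carried a hairpin transgene against row (relative of woc), which encodes a zinc-finger chromatin protein. No UAS insertion is named for the control, so each insertion's genetic background cannot be told apart from the knockdown. Flies were kept at 25 °C in 12 h light and 12 h dark and were collected after 3 days of recovery from CO2. The sources used here state neither the sex nor the age of the flies. Nothing says that libraries of 1 group came from separate collections of flies, so p-values reflect only how far these samples spread, which could be technical.

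Total counts ran over 17952015 and 18046699 in row_RNAi1, 6230666 to 11212213 in row_RNAi2, and 7015874 to 9437287 in controls. The targeted gene row stood at 5.93 and 4.22 CPM in row_RNAi1, 8.04, 5.97 and 8.28 CPM in row_RNAi2, and 14.3, 14.9 and 12.1 CPM in controls, and all 5 knockdown libraries lay below all 3 controls. The fit put its log2 fold change at -1.44 (SE 0.19, edgeR quasi-likelihood adjusted p = 1.81e-05) in row_RNAi1 and -0.90 (SE 0.17, edgeR quasi-likelihood adjusted p = 0.00175) in row_RNAi2. Levels are given in CPM, each count divided by the TMM-scaled total of its library, and in 3′ libraries they are not divided by transcript length. Fold changes are log2 values from the edgeR quasi-likelihood fit with their standard errors (SE), and a gene was called where its Benjamini-Hochberg adjusted p over all 9442 genes tested was under 0.05. A difference in a whole head can come from fewer cells of a type or from less RNA per cell, and these cannot be told apart.

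As a family, the genes were detected at very unequal depth. Together they took 0.803% and 0.80% of counts in row_RNAi1, 0.979%, 0.930% and 0.908% in row_RNAi2, and 1.06%, 0.990% and 1.06% in controls. The mean over the 8 libraries was at least 100 CPM for 11 members and under 1 CPM for 12. All 8 libraries held counts of 29 members, and 29, not all the same ones, passed the low-count filter, 6 of the 7 antennal and 23 of the 33 others. The filter passes a gene on the libraries where it is high, so counts over the tested members describe those members only.

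More tested members fell than rose in both lines. In row_RNAi1, 4 rose and 11 fell of 29, where 21.2% of all tested genes were called, 11.2% higher and 10% lower. For row_RNAi2, 2 rose and 10 fell, where 10.8% of all tested genes were called, 5.49% higher and 5.34% lower. The median log2 fold change of the 29 was -0.30 in row_RNAi1 and -0.31 in row_RNAi2, and that of all tested genes was -0.01 in each. Both lines were set against the same 3 controls. Obp19a, Obp19b, Obp19c, Obp19d, Obp28a, Obp44a, Obp56g, Obp83cd and Obp99b fell in both lines, and Obp83ef rose in both. Obp49a, Obp56h and Obp57d rose and Obp8a and Obp56d fell in row_RNAi1, while Obp99a rose and Obp83a fell in row_RNAi2.

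Replicates of 1 group differed in antennal genes, row_RNAi1 replicate 1 and control replicate 2 being low beside the others of their groups. Leaving both out was chosen after these levels were seen and keeps 1 row_RNAi1 library. Antennal calls gained that way follow from the choice, so its counts of called members are not given. In the main fit averaged over both lines, 5 members rose and 11 fell. There 17.8% of all tested genes were called, 9.24% higher and 8.56% lower. Of these members, Obp99a and Obp83a were called in row_RNAi2 alone, and Obp8a, Obp49a, Obp56h and Obp57d in row_RNAi1 alone. Obp99a, among those that rose, was at -0.44 in row_RNAi1 and 2.18 in row_RNAi2. With all 5 knockdown libraries as 1 group, 9 members were called in place of 16, and 8.89% of all tested genes. The direct comparison of row_RNAi2 with row_RNAi1 called 6 of 29, where 11.3% of all tested genes were called, 4.98% higher and 6.33% lower. Obp8a, Obp19c, Obp44a and Obp99a were higher in row_RNAi2 than in row_RNAi1, and Obp28a and Obp99b were lower. No library of row_RNAi1 overlapped a control library for 17 members, against a background of 47.7% of tested genes. The same held between row_RNAi2 and control for 20 members, against 24.4% of tested genes. All 5 knockdown libraries lay to 1 side of all controls for 13 members, against 17.2%, and the lines did not overlap each other for 15, against 39%.

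**Figure D1:**
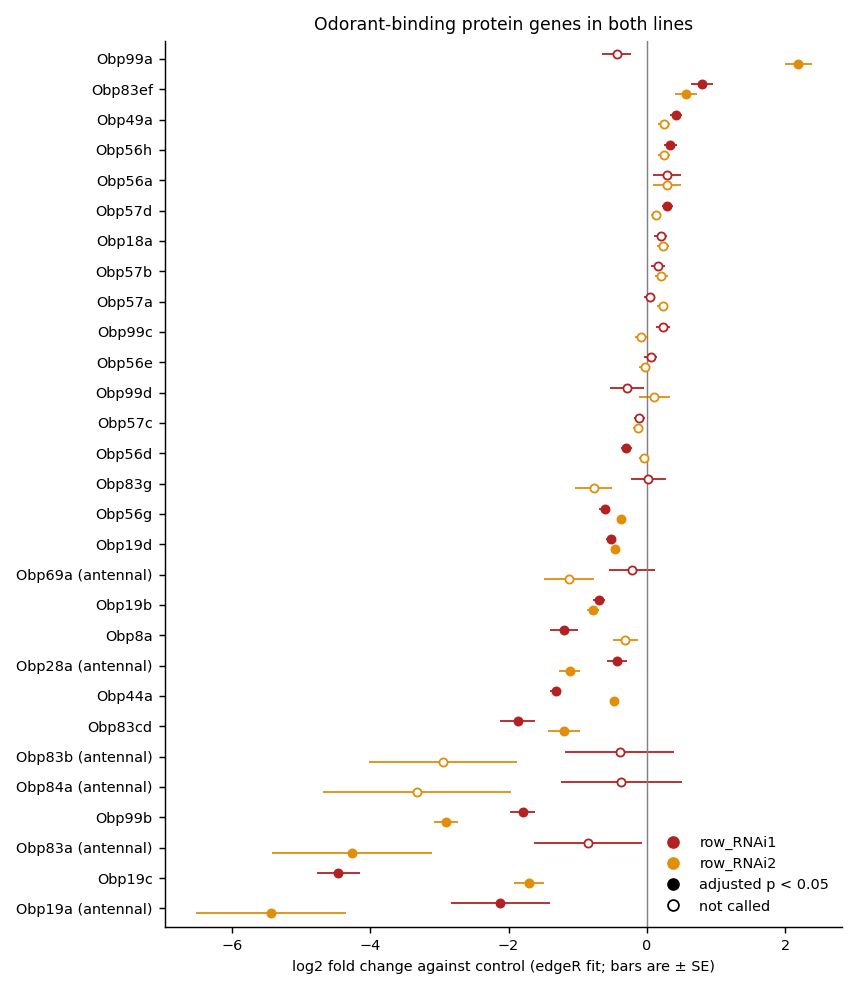
Log2 fold change against control of the 29 tested odorant-binding protein genes, in row_RNAi1 (red) and row_RNAi2 (orange), with bars of ± SE from the edgeR fit; filled points have an adjusted p under 0.05. Obp99a lies at -0.44 in row_RNAi1 and 2.18 in row_RNAi2, Obp99b lies below 0 in both lines, and all 6 tested antennal members lie below 0 in both lines. In row_RNAi1, Obp69a, Obp83a, Obp83b and Obp84a turned above 0 in some fits with a single library left out.

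The antennal members were low in whole heads and uneven between libraries of 1 group. Obp83a and Obp83b encode the neighbouring proteins OS-F and OS-E of the lymph of pheromone-sensing and other antennal sensilla. Obp83a stood at 0.242 and 13.3 CPM in row_RNAi1, 0.656, 0.543 and 0.712 CPM in row_RNAi2, and 13.1, 1.14 and 23.3 CPM in controls. Obp83b stood at 0.121 and 7.34 CPM in row_RNAi1, 0.656, 0.272 and 0.979 CPM in row_RNAi2, and 6.44, 0.413 and 8.37 CPM in controls. Both were high in row_RNAi1 replicate 2 and control replicates 1 and 3 and low in the other 5 libraries, so replicates of 1 group did not keep together in row_RNAi1 or in controls.

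Obp19a, at the start of a run of 4 neighbouring Obp19 genes on the X chromosome, had 0.0605 and 2.20 CPM in row_RNAi1, 0, 0.272 and 0 CPM in row_RNAi2, and 6.57, 1.24 and 7.48 CPM in controls. Over all libraries of a group that was 3 counts in row_RNAi2 and 129 in controls, a ratio of scaled counts of 0.0215 with a 95% counting interval of 0.00438 to 0.0643. Obp84a, known from coeloconic sensilla, had 2 and 19 counts in row_RNAi1, 0, 2 and 0 counts in row_RNAi2, and 4, 0 and 17 counts in controls. Obp59a, known from humidity-sensing sensilla, had 4 counts in row_RNAi1 replicate 2, 5 and 6 counts in control replicates 1 and 3 and 0 in the other 5 libraries. With a floor of 3 counts over the group, Obp59a was at least 3.96-fold lower in row_RNAi2 than in controls, and it was not tested. These 3 genes were high in the same libraries as Obp83a and Obp83b. Such intervals and floors cover counting error only.

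In Obp28a and Obp69a the same 3 libraries were the highest, with smaller gaps to the others. Obp28a, the most counted antennal member and known from many olfactory sensilla, had 16.3 and 23.0 CPM in row_RNAi1, 11.2, 11.3 and 13.8 CPM in row_RNAi2, and 26.9, 22.7 and 30.1 CPM in controls. All 3 row_RNAi2 libraries lay below every other library, and row_RNAi1 replicate 2 lay just above control replicate 2. Obp69a, known from antennal sensilla, had 2.42 and 6.01 CPM in row_RNAi1, 1.48, 2.44 and 2.58 CPM in row_RNAi2, and 4.20, 4.03 and 6.59 CPM in controls, with every row_RNAi2 library below every control library and row_RNAi1 overlapping both groups.

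In the main fit, no antennal member was called higher in either line. With a single library left out, row_RNAi1 values reached 0.28 for Obp69a, 0.11 for Obp83a, 0.56 for Obp83b and 1.37 for Obp84a. These members were high in the same libraries, and both lines share the controls, so their common direction is not repeated evidence. Of the 6 tested, 2 fell in row_RNAi1 and 3 in row_RNAi2, with a median log2 fold change of -0.41 in row_RNAi1 and -3.13 in row_RNAi2. Over all tested genes, 21.2% were called in row_RNAi1 and 10.8% in row_RNAi2. Of the 23 other tested members, 4 rose and 9 fell in row_RNAi1 (median -0.11), and 2 rose and 7 fell in row_RNAi2 (median -0.05). In row_RNAi1, Obp19a fell by 2.12 on the log2 scale (SE 0.71, edgeR quasi-likelihood adjusted p = 0.0436) and Obp28a fell by 0.43 (SE 0.14, adjusted p = 0.0422). Against the same controls, row_RNAi2 gave -5.43 (SE 1.08, edgeR quasi-likelihood adjusted p = 0.00237) for Obp19a, -1.12 (SE 0.15, edgeR quasi-likelihood adjusted p = 4.17e-05) for Obp28a and -4.26 (SE 1.15, edgeR quasi-likelihood adjusted p = 0.0220) for Obp83a. Obp69a, Obp83b and Obp84a were called in neither line, at -1.12, -2.95 and -3.32 in row_RNAi2 with edgeR adjusted p of 0.0556, 0.0981 and 0.158. Between the lines only Obp28a was called, at -0.69 (SE 0.16, edgeR quasi-likelihood adjusted p = 0.00650) for row_RNAi2 minus row_RNAi1.

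Several of these calls crossed the threshold when a library was left out, with the fold change moved in some cases and little changed in others. For Obp19a in row_RNAi1 the fold change was -1.19 without row_RNAi1 replicate 1 (edgeR adjusted p = 0.292), -1.91 without control replicate 1 (0.127), -1.69 without control replicate 3 (0.156), and -2.12 without row_RNAi2 replicate 1 (0.0515) or 2 (0.0706), which enter that contrast through the shared spread alone. Obp28a in row_RNAi1 was at -0.21 without row_RNAi1 replicate 1 (edgeR adjusted p = 0.473), -0.43 without row_RNAi2 replicate 2 (0.0575), -0.42 without control replicate 1 (0.0967) and -0.32 without control replicate 3 (0.186). The row_RNAi2 fold change of Obp83a stayed at -4.28, -4.14 and -4.38 without row_RNAi2 replicate 1 (edgeR adjusted p = 0.0656), 2 (0.117) or 3 (0.0688), and was -4.22 without control replicate 1 (0.0528) and -3.37 without control replicate 3 (0.106). Between the lines Obp28a was at -0.42 without row_RNAi1 replicate 2 (edgeR adjusted p = 0.191). Without row_RNAi1 replicate 2 the fold change of Obp19a in row_RNAi1 was -6.11 and that of Obp28a -0.70. Without row_RNAi2 replicate 2 the fold change of Obp19a in row_RNAi2 was -8.80. The libraries kept held 1 count of Obp19a in row_RNAi1 and 0 in row_RNAi2, so the size of -6.11 and -8.80 is poorly determined. DESeq2 gave adjusted p of 0.565 for Obp19a and 0.116 for Obp28a in row_RNAi1, and limma voom gave 0.346 for Obp83a in row_RNAi2. In row_RNAi1, edgeR with the 2 compared groups alone gave adjusted p of 0.065 for Obp19a and 0.0518 for Obp28a. With a replicate block, edgeR gave 0.151 and 0.12 for the same genes.

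Other antennal differences were called under some settings. In row_RNAi2, Obp69a was called lower by DESeq2 (adjusted p = 0.0496) and by edgeR with the 2 compared groups alone (0.0209), with no low-count filter (0.000424) or with a replicate block (0.0124). Obp83b was called lower in row_RNAi2 with the 2 compared groups alone (edgeR adjusted p = 0.0160) or with no filter (1.72e-15), and Obp84a with no filter (0.0139). Both Obp69a and Obp83b were also called there when either row_RNAi1 library was left out (edgeR adjusted p = 0.0155 to 0.0198), and Obp83b and Obp84a without control replicate 2 (0.0142 and 0.0346). In row_RNAi1, Obp83a was called lower with no filter, at -0.84 (edgeR adjusted p = 9.44e-05). Its row_RNAi1 libraries overlapped the controls, and the main fit gave -0.85 (edgeR adjusted p = 0.508). For genes this uneven between replicates, such small no-filter p-values do not measure the spread between libraries. Without row_RNAi1 replicate 2, which leaves 1 row_RNAi1 library, Obp83a and Obp83b were at -5.61 and -5.23.

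The difference between the lines in Obp83a and Obp83b turned in sign with which row_RNAi1 library was kept. For row_RNAi2 minus row_RNAi1, Obp83a was at -4.37 and Obp83b at -3.51 without row_RNAi1 replicate 1. Without row_RNAi1 replicate 2 they were at 1.35 and 2.28.

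**Figure D2:**
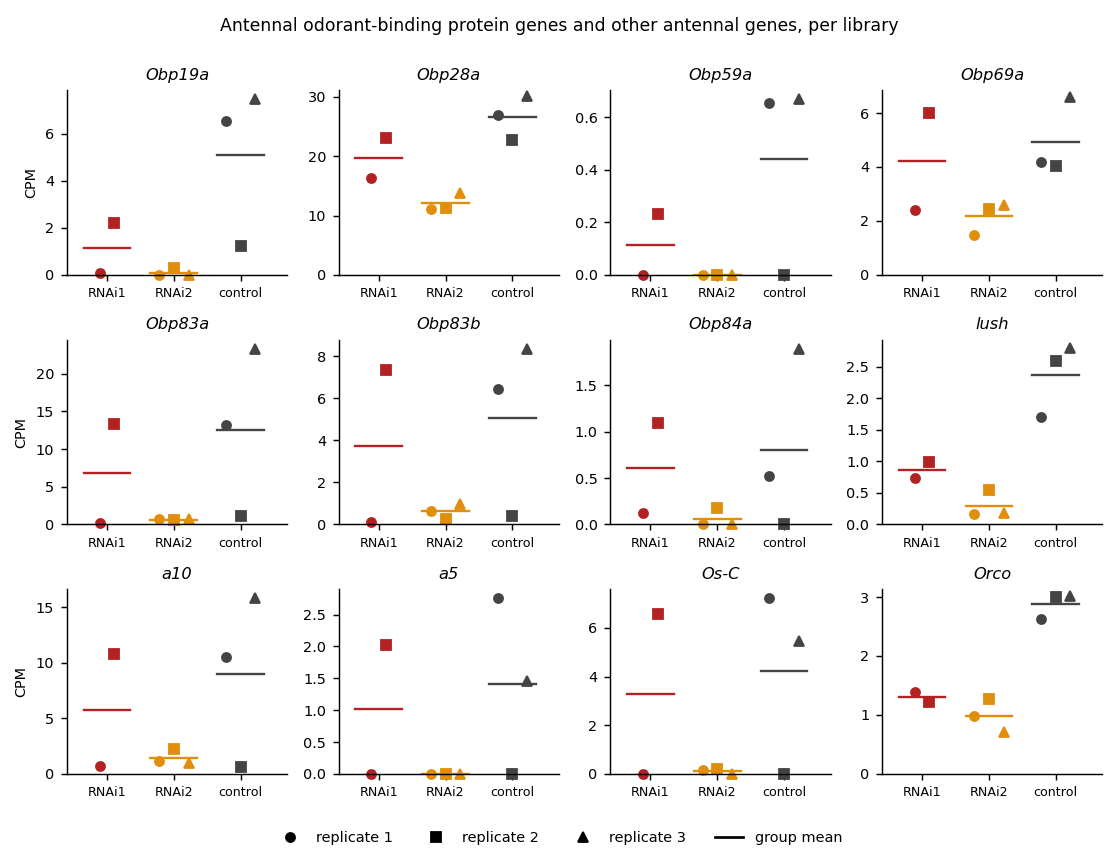
CPM per library (y axes start at 0) of the 7 antennal odorant-binding protein genes, lush, and the antennal genes a10, a5, Os-C and Orco, in row_RNAi1 (2 libraries), row_RNAi2 (3) and control (3), with symbols for replicate number and lines for group means. Row_RNAi1 replicate 2 and control replicates 1 and 3 stand above the other 5 libraries in Obp19a, Obp59a, Obp83a, Obp83b, Obp84a, a10, a5 and Os-C.

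Other antennal genes moved with these members. The antennal chemosensory protein gene a10 had 0.666 and 10.8 CPM in row_RNAi1, 1.15, 2.26 and 0.979 CPM in row_RNAi2, and 10.5, 0.620 and 15.9 CPM in controls. The antennal gene Os-C had 0 and 6.59 CPM in row_RNAi1, 0.164, 0.181 and 0 CPM in row_RNAi2, and 7.22, 0 and 5.47 CPM in controls. For the antennal gene a5 the levels were 0 and 2.02 CPM in row_RNAi1, 0, 0 and 0 CPM in row_RNAi2, and 2.76, 0 and 1.45 CPM in controls. They were high and low in the same libraries as Obp83a. Apart from a10, a5 and Os-C, the other 19 antenna markers found, among them receptors and their coreceptors, summed to 14.0 and 13.9 CPM in row_RNAi1, 13.8, 15.8 and 14.4 CPM in row_RNAi2, and 15.9, 18.4 and 20.1 CPM in controls, with no such split. The whole list of 22 markers found summed to 14.7 and 33.3 CPM in row_RNAi1, 15.1 to 18.3 CPM in row_RNAi2 and 19.0 to 42.9 CPM in controls, and none was at 0 in all 8 libraries. Of these, 8 were tested, and only Orco was called in either line, where 21.2% (row_RNAi1) and 10.8% (row_RNAi2) of all tested genes were called. The part of antennal content in these differences was not tested.

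Orco, the odorant coreceptor, had 1.39 and 1.21 CPM in row_RNAi1, 0.984, 1.27 and 0.712 CPM in row_RNAi2, and 2.63, 2.996 and 3.01 CPM in controls, all 5 knockdown libraries below all 3 controls. Orco fell in both lines, at -1.14 (SE 0.33, edgeR quasi-likelihood adjusted p = 0.0170) in row_RNAi1 and -1.54 (SE 0.34, edgeR quasi-likelihood adjusted p = 0.00504) in row_RNAi2. The pheromone-binding protein gene lush, needed for the response to the male pheromone cis-vaccenyl acetate, had 0.726 and 0.982 CPM in row_RNAi1, 0.164, 0.543 and 0.178 CPM in row_RNAi2, and 1.71, 2.58 and 2.79 CPM in controls. It fell in both lines, at -1.47 (SE 0.40, edgeR quasi-likelihood adjusted p = 0.0130) in row_RNAi1 and -2.87 (SE 0.48, edgeR quasi-likelihood adjusted p = 0.000489) in row_RNAi2, and its knockdown libraries also all lay below the controls. In row_RNAi1 lush was at -1.27 without row_RNAi1 replicate 1 (edgeR adjusted p = 0.126) and -1.33 without control replicate 3 (0.0536), and DESeq2 gave an adjusted p of 0.0836. Unlike Obp83a and Obp83b, lush and Orco were not high in row_RNAi1 replicate 2.

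Set library by library, the antennal members were a small and uneven share of the family. Their summed level was 19.3 and 53.2 CPM in row_RNAi1, 13.9, 15.0 and 18.1 CPM in row_RNAi2, and 58.4, 29.5 and 78.5 CPM in controls. The other 33 members summed to 8706 and 8289 CPM in row_RNAi1, 9990.4, 9418 and 8615 CPM in row_RNAi2, and 9692, 9624 and 10516 CPM in controls. As a share of all Obp counts the antennal members took 0.221% (95% Clopper-Pearson interval 0.198% to 0.247%) and 0.638% (0.598% to 0.680%) in row_RNAi1, 0.139% (0.111% to 0.172%), 0.159% (0.136% to 0.185%) and 0.209% (0.181% to 0.240%) in row_RNAi2, and 0.599% (0.545% to 0.658%), 0.306% (0.272% to 0.344%) and 0.741% (0.687% to 0.797%) in controls. All 3 row_RNAi2 shares lay below every control share, and the row_RNAi1 shares straddled control replicate 2.

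Without Obp28a and Obp69a the antennal sum was 0.545 and 24.2 CPM in row_RNAi1, 1.31, 1.27 and 1.69 CPM in row_RNAi2, and 27.3, 2.79 and 41.7 CPM in controls, and control replicate 2 then lay near the row_RNAi2 libraries. Among controls the median coefficient of variation was 73.9% over the 6 tested antennal members (14.0% to 121%) and 6.38% over the 23 other tested members (3.74% to 31.5%).

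Obp99a and Obp99b, on arm 3R and both grouped here with members of body tissues other than sense organs, moved apart in row_RNAi2. Obp99a had 236 and 122 CPM in row_RNAi1, 1156, 1159 and 989 CPM in row_RNAi2, and 188, 224 and 315 CPM in controls. Its row_RNAi2 libraries averaged 4.55-fold the control mean and did not overlap either other group, and the row_RNAi1 libraries fell on both sides of the lowest control. Against control the fit gave -0.44 (SE 0.21, edgeR quasi-likelihood adjusted p = 0.171) in row_RNAi1 and 2.18 (SE 0.19, edgeR quasi-likelihood adjusted p = 4.85e-07) in row_RNAi2, and row_RNAi2 exceeded row_RNAi1 by 2.62 (SE 0.23, edgeR quasi-likelihood adjusted p = 5.66e-07). The row_RNAi1 value rested on which library was kept, at -0.995 without row_RNAi1 replicate 1 (edgeR adjusted p = 0.00284) and -0.04 without row_RNAi1 replicate 2 (0.937). With no low-count filter Obp99a was called lower in row_RNAi1, at -0.42 (edgeR adjusted p = 1.52e-05), although its row_RNAi1 libraries overlapped the controls. That p-value does not measure the spread between these libraries.

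Obp99b, also named tsx and known as a male-biased transcript of head fat cells, had 85.4 and 103 CPM in row_RNAi1, 48.1, 40.6 and 43.4 CPM in row_RNAi2, and 329, 225 and 429 CPM in controls. All 5 knockdown libraries lay below all 3 controls, and the row_RNAi2 libraries lay below those of row_RNAi1. The group means were 28.8% of the control mean in row_RNAi1 and 13.4% in row_RNAi2. Obp99b fell in both lines, at -1.80 (SE 0.18, edgeR quasi-likelihood adjusted p = 1.01e-06) in row_RNAi1 and -2.90 (SE 0.17, edgeR quasi-likelihood adjusted p = 3.22e-09) in row_RNAi2, and it was lower in row_RNAi2 than in row_RNAi1, at -1.10 (SE 0.18, edgeR quasi-likelihood adjusted p = 0.000419).

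Transcripts of the same tissue and sex-biased transcripts were not at a constant level. Of 10 tested fat body markers, 4 rose and 3 fell in row_RNAi1, and 3 rose and 1 fell in row_RNAi2. The shares called of all tested genes were 21.2% in row_RNAi1 and 10.8% in row_RNAi2. The 12 markers found, none at 0 in all libraries, summed to 8347 and 6934 CPM in row_RNAi1, 10816 to 12705 CPM in row_RNAi2 and 5940.4 to 6655 CPM in controls. Without Lsp2 the other 11 summed to 6781 and 6085 CPM in row_RNAi1, 5471 to 6596 CPM in row_RNAi2 and 4972 to 5295 CPM in controls, so Lsp2 made most of the excess in row_RNAi2. Lsp2, a storage protein gene of the fat body, had 1566 and 849 CPM in row_RNAi1, 4219.9, 6258 and 5898 CPM in row_RNAi2, and 896, 922 and 1683 CPM in controls, at 2.23 (SE 0.23, edgeR quasi-likelihood adjusted p = 2.82e-06) in row_RNAi2 and 0.05 (edgeR adjusted p = 0.923) in row_RNAi1. Like Obp99a, Lsp2 was higher in all 3 row_RNAi2 libraries than in the other 5. The lipid droplet gene Lsd-1 fell in both lines (-1.17 in row_RNAi1 and -0.81 in row_RNAi2, edgeR adjusted p = 2.11e-07 and 8.69e-06), and the lipase gene bmm and the lipoprotein gene Rfabg rose in both.

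Among 11 tested sex-biased head transcripts, 2 rose and 5 fell in row_RNAi1, and 2 rose and 3 fell in row_RNAi2. The shares called of all tested genes were 21.2% in row_RNAi1 and 10.8% in row_RNAi2. The female-biased fat body gene fit had 943 and 656 CPM in row_RNAi1, 971, 1151 and 907 CPM in row_RNAi2, and 248, 326 and 458 CPM in controls, higher in all 5 knockdown libraries than in all 3 controls. Male-biased sxe2, Cyp4d21 and to fell in both lines, and each was lower in row_RNAi1 than in row_RNAi2, the reverse of the order for Obp99b. The values for sxe2 were -1.65 (SE 0.14, edgeR quasi-likelihood adjusted p = 9.02e-08) in row_RNAi1 and -0.79 (SE 0.12, edgeR quasi-likelihood adjusted p = 0.000163) in row_RNAi2. The 11 together, mostly yolk protein counts, summed to 135110.0 and 108677 CPM in row_RNAi1, 111003 to 141596 CPM in row_RNAi2 and 84969 to 119357 CPM in controls. The yolk protein genes Yp1 and Yp2, made by females, were called in neither line, and Yp3, of the same kind, rose in both, at 0.75 (SE 0.13, edgeR quasi-likelihood adjusted p = 0.000259) in row_RNAi1 and 0.52 (SE 0.11, edgeR quasi-likelihood adjusted p = 0.00516) in row_RNAi2.

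The dosage compensation RNA roX1, made in males, had 307 and 353 CPM in row_RNAi1, 422, 467 and 548 CPM in row_RNAi2, and 684, 534 and 416 CPM in controls. It was called lower in row_RNAi1 (-0.72, edgeR adjusted p = 0.00196) and was at -0.18 (adjusted p = 0.50) in row_RNAi2. roX2 gave -0.43 (edgeR adjusted p = 0.0303) in row_RNAi1 and -0.21 (adjusted p = 0.391) in row_RNAi2. The share of males in each collection was not given, and its part, or that of fat body content, in the Obp99a and Obp99b differences was not tested.

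**Figure D3:**
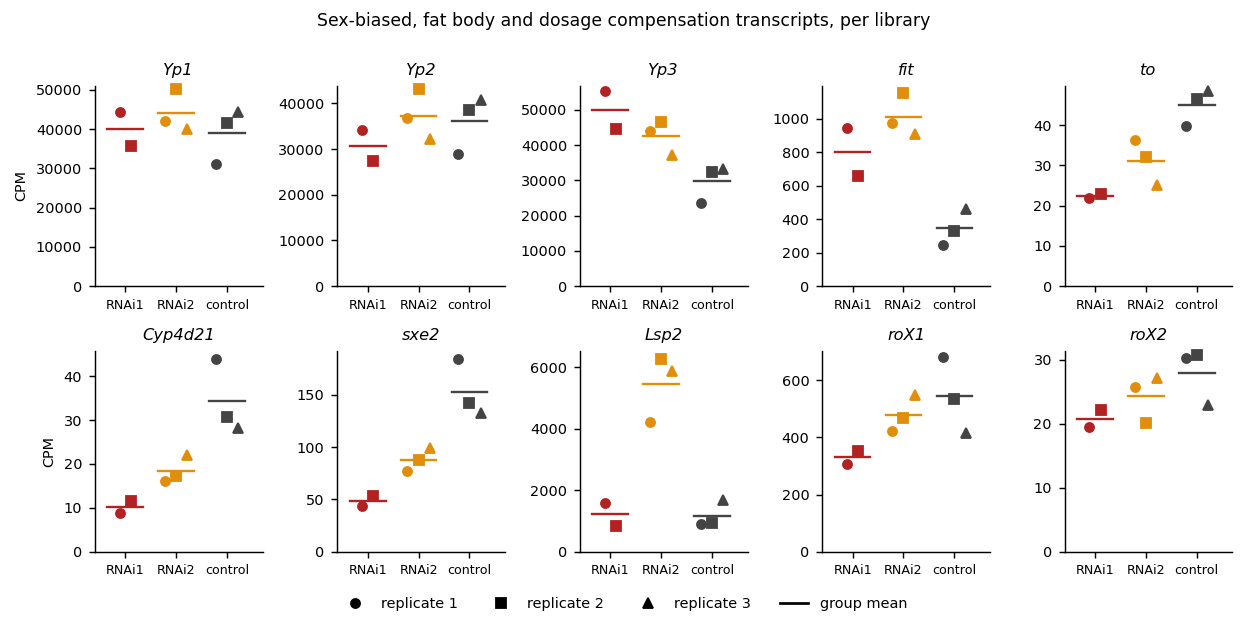
CPM per library (y axes start at 0) of sex-biased, fat body and dosage compensation transcripts in row_RNAi1, row_RNAi2 and control, with symbols for replicate number and lines for group means. Lsp2 is highest in the 3 row_RNAi2 libraries, fit is higher in all 5 knockdown libraries than in the controls, and sxe2 and Cyp4d21 are lower in all 5.

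Obp99c and Obp44a are the other members assigned to body tissues. Obp99c, the most counted member, had 3711 and 3623 CPM in row_RNAi1, 3502, 2889.7 and 2448 CPM in row_RNAi2, and 2986, 3139.7 and 3243 CPM in controls. It was called in neither line, at 0.23 in row_RNAi1 and -0.08 in row_RNAi2 (edgeR adjusted p = 0.139 and 0.695). Both row_RNAi1 libraries lay above all 3 controls, and the row_RNAi2 libraries overlapped the controls. Obp99c was called higher in row_RNAi1 without row_RNAi2 replicate 1 (edgeR adjusted p = 0.0198) or 3 (0.0314). The same held with the 2 compared groups alone (edgeR adjusted p = 0.00387) or with no filter (0.00425). In row_RNAi2 it was called lower without row_RNAi2 replicate 1 (edgeR adjusted p = 0.0461). Obp44a, a lipid carrier of glia, had 655 and 689 CPM in row_RNAi1, 1157, 1215 and 1262 CPM in row_RNAi2, and 1777, 1575 and 1684 CPM in controls, and the 3 groups did not overlap. It fell in both lines, at -1.32 (SE 0.08, edgeR quasi-likelihood adjusted p = 1.09e-09) in row_RNAi1 and -0.47 (SE 0.07, edgeR quasi-likelihood adjusted p = 8.50e-05) in row_RNAi2, and was higher in row_RNAi2 than in row_RNAi1, at 0.85 (SE 0.08, edgeR quasi-likelihood adjusted p = 6.14e-07).

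Of 11 tested glial markers, 1 rose and 5 fell in row_RNAi1, and 1 rose and 2 fell in row_RNAi2. The shares called of all tested genes were 21.2% in row_RNAi1 and 10.8% in row_RNAi2. The 11, none at 0 in all libraries, summed to 1211 and 1211 CPM in row_RNAi1, 1326 to 1459 CPM in row_RNAi2 and 1505 to 1544 CPM in controls. The GABA transporter gene Gat, of astrocytes, was called lower in row_RNAi1 (-0.85, edgeR adjusted p = 1.21e-06) and in row_RNAi2 (-0.31, adjusted p = 0.0174). The part of glial content in the Obp44a difference was not tested. Another gene overlaps 11 members in the Release 6 annotation. Obp44a overlaps Pabp2 and Obp99c overlaps Gycalpha99B, and Obp59a, Obp69a and Obp84a also have a partner, each on the opposite strand, and without stated strand use such reads cannot be told apart.

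The Obp19 neighbours on the X chromosome all fell in both lines. Obp19b, known from taste and antennal organs, had 24.0 and 23.1 CPM in row_RNAi1, 19.5, 22.9 and 23.6 CPM in row_RNAi2, and 39.7, 37.9 and 36.8 CPM in controls. Its libraries did not overlap the controls in either line, with -0.70 (SE 0.09, edgeR quasi-likelihood adjusted p = 1.52e-05) in row_RNAi1 and -0.78 (SE 0.09, edgeR quasi-likelihood adjusted p = 6.07e-06) in row_RNAi2. Obp19d, an abundant member also known as PBPRP-2 and found outside olfactory sensilla too, had 1114 and 1101 CPM in row_RNAi1, 1130.2, 1213 and 1119.7 CPM in row_RNAi2, and 1620.3, 1482 and 1666 CPM in controls, at -0.52 (SE 0.07, edgeR quasi-likelihood adjusted p = 4.36e-05) in row_RNAi1 and -0.46 (SE 0.07, edgeR quasi-likelihood adjusted p = 9.10e-05) in row_RNAi2.

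Obp19c, between them, had 0.242 and 0.578 CPM in row_RNAi1, 2.79, 2.90 and 2.85 CPM in row_RNAi2, and 9.06, 10.02 and 8.93 CPM in controls, and the 3 groups stood apart. The control libraries held 69, 97 and 80 counts, and row_RNAi1, with larger totals, held 4 and 10. Obp19c gave the largest fall of row_RNAi1 among tested members, at -4.46 (SE 0.31, edgeR quasi-likelihood adjusted p = 8.62e-09), against -1.71 (SE 0.22, edgeR quasi-likelihood adjusted p = 2.82e-05) in row_RNAi2. Row_RNAi2 exceeded row_RNAi1 by 2.75 (SE 0.37, edgeR quasi-likelihood adjusted p = 5.59e-05).

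**Figure D4:**
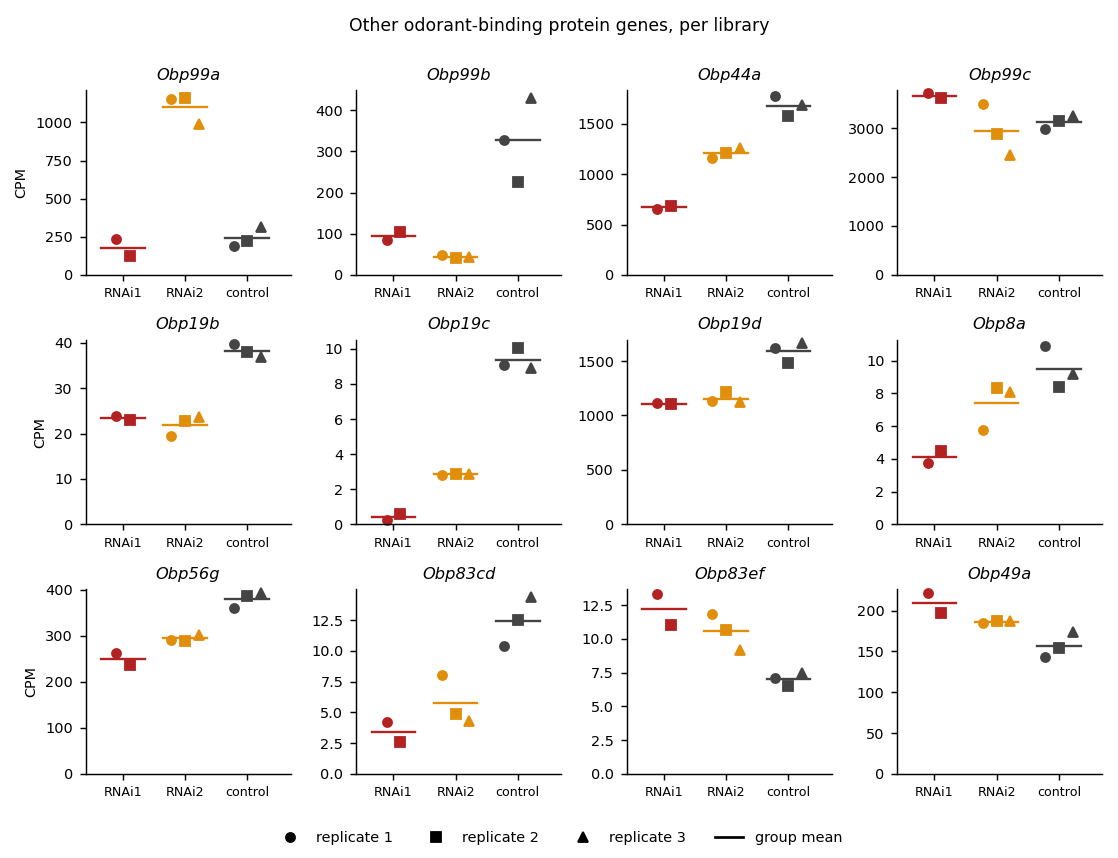
CPM per library (y axes start at 0) of 12 odorant-binding protein genes outside the antennal set, in row_RNAi1, row_RNAi2 and control, with symbols for replicate number and lines for group means. Obp99a is highest in row_RNAi2, Obp44a and Obp19c rank row_RNAi1 below row_RNAi2 below control, and Obp19b and Obp19d are lower than control in all 5 knockdown libraries.

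Obp83cd and Obp83ef moved in opposite directions. These are neighbours on arm 3R whose annotated ends overlap on opposite strands. Obp83cd had 4.24 and 2.60 CPM in row_RNAi1, 8.04, 4.89 and 4.27 CPM in row_RNAi2, and 10.4, 12.5 and 14.4 CPM in controls, all 5 knockdown libraries below the controls, and fell by 1.87 in row_RNAi1 (SE 0.25, edgeR adjusted p = 2.22e-05) and by 1.20 in row_RNAi2 (SE 0.23, adjusted p = 0.00150). Obp83ef had 13.3 and 11.0 CPM in row_RNAi1, 11.8, 10.7 and 9.17 CPM in row_RNAi2, and 7.09, 6.51 and 7.48 CPM in controls, all 5 above the controls, and rose in both lines, at 0.79 (SE 0.16, edgeR quasi-likelihood adjusted p = 0.00118) in row_RNAi1 and 0.57 (SE 0.16, edgeR quasi-likelihood adjusted p = 0.0261) in row_RNAi2.

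In row_RNAi2 the fold change of Obp83ef stayed between 0.50 and 0.67 with any single library left out, and it missed the threshold without row_RNAi2 replicate 1 (edgeR adjusted p = 0.0788) or 2 (0.0928), or without control replicate 1 (0.0555) or 2 (0.104). DESeq2 gave 0.58 (adjusted p = 0.0713). Without control replicate 2 and row_RNAi1 replicate 1 together it was at 0.60 in row_RNAi1 (edgeR adjusted p = 0.104) and 0.51 in row_RNAi2 (0.128). Obp83g, their neighbour, had 60 and 85 counts in row_RNAi1, 21, 24 and 24 counts in row_RNAi2, and 29, 43 and 39 counts in controls and was called in neither line, but it was called lower in row_RNAi2 without row_RNAi2 replicate 1 (edgeR adjusted p = 0.0380). No source used here states which strand was counted, so reads of the overlapping pair may be shared.

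Of the 8 tested members known from taste organs or several organs, the 2 that rose in row_RNAi1 were Obp49a and Obp57d and the 3 that fell were Obp19b, Obp19d and Obp56d, while in row_RNAi2 Obp19b and Obp19d fell. Of 18 taste markers found, 6 were tested, and ppk23 fell in row_RNAi1 as the only call in either line, at -1.90 (edgeR adjusted p = 0.0378). Beside both sets, 21.2% of all tested genes were called in row_RNAi1 and 10.8% in row_RNAi2. Obp49a, which binds bitter compounds and lowers the response of sweet-sensing neurons, had 222 and 197 CPM in row_RNAi1, 184, 187 and 187 CPM in row_RNAi2, and 143, 154 and 174 CPM in controls, with all 5 knockdown libraries above the controls. It rose in row_RNAi1, at 0.41 (SE 0.09, edgeR quasi-likelihood adjusted p = 0.00208), and was at 0.24 (SE 0.08, edgeR quasi-likelihood adjusted p = 0.0638) in row_RNAi2, where it was not called. Without row_RNAi1 replicate 1 the row_RNAi1 value was 0.33 (edgeR adjusted p = 0.0855). Obp49a was called higher in row_RNAi2 without control replicate 3 (edgeR adjusted p = 0.00747), with no filter (0.0356), by DESeq2 (0.0272) and by limma voom (0.0316).

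Obp57a to Obp57e form a cluster on arm 2R, of which Obp57d and Obp57e are known from leg and mouthpart taste hairs and from choice of egg-laying site. Obp57d had 78.9 and 80.3 CPM in row_RNAi1, 73.5, 70.5 and 69.1 CPM in row_RNAi2, and 64.2, 62.6 and 68.0 CPM in controls and rose in row_RNAi1, at 0.29 (SE 0.08, edgeR quasi-likelihood adjusted p = 0.0118), against 0.31 without row_RNAi1 replicate 1 (edgeR adjusted p = 0.0701) and 0.28 without replicate 2 (0.0992). In row_RNAi2 it was at 0.13 (edgeR adjusted p = 0.353). Obp57a, Obp57b and Obp57c were called in neither line, with log2 fold changes of 0.04, 0.16 and -0.11 in row_RNAi1 and 0.23, 0.20 and -0.13 in row_RNAi2, though Obp57a was called higher in row_RNAi2 without row_RNAi2 replicate 3 (edgeR adjusted p = 0.0181). Obp57d shares annotated ground with Cpr57A on the same strand. Obp57e had 8 counts in row_RNAi1, 4 in row_RNAi2 and 3 in controls and was not tested.

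Obp56d, found in antennae, mouthparts and other organs, was abundant at 725 and 664 CPM in row_RNAi1, 845, 874 and 759 CPM in row_RNAi2, and 826, 835 and 906 CPM in controls. It fell in row_RNAi1, at -0.30 (SE 0.08, edgeR quasi-likelihood adjusted p = 0.0117), and was at -0.05 in row_RNAi2 (edgeR adjusted p = 0.767). In row_RNAi1 it was at -0.24 without row_RNAi1 replicate 2 (edgeR adjusted p = 0.185) and -0.25 without control replicate 3 (0.0626). Between the lines Obp56d was not called in the main fit, at 0.25 (edgeR adjusted p = 0.0555). It was called, higher in row_RNAi2, without control replicate 3 (edgeR adjusted p = 0.0498) or row_RNAi2 replicate 3 (0.0173). DESeq2 (adjusted p = 0.0136) and limma voom (0.0336) also called it higher there. So did edgeR with no filter (adjusted p = 0.0381) or with a mean of at least 5 CPM (0.042).

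Members best known from the male reproductive tract were also counted in heads, and 3 of the 5 were tested. Obp56g, a seminal protein needed for the mating plug, had 262 and 236 CPM in row_RNAi1, 291, 289 and 301 CPM in row_RNAi2, and 361, 387 and 392 CPM in controls, all 5 knockdown libraries below the controls. It fell in both lines, at -0.61 (SE 0.08, edgeR quasi-likelihood adjusted p = 1.62e-05) in row_RNAi1 and -0.37 (SE 0.07, edgeR quasi-likelihood adjusted p = 0.00144) in row_RNAi2. Obp8a, also known as a seminal protein, had 3.75 and 4.45 CPM in row_RNAi1, 5.74, 8.33 and 8.10 CPM in row_RNAi2, and 10.9, 8.37 and 9.15 CPM in controls. It fell in row_RNAi1, at -1.20 (SE 0.20, edgeR quasi-likelihood adjusted p = 0.000236), while row_RNAi2 was at -0.31 (SE 0.18, edgeR quasi-likelihood adjusted p = 0.351). It was higher in row_RNAi2 than in row_RNAi1, at 0.88 (SE 0.20, edgeR quasi-likelihood adjusted p = 0.00760), and without row_RNAi1 replicate 1 that difference was 0.77 (edgeR adjusted p = 0.108).

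Obp56e, a neighbour of Obp56d, averaged 829 ± 81.7 CPM in row_RNAi1 (SD, n = 2), 780.0 ± 37.8 CPM in row_RNAi2 (SD, n = 3) and 799 ± 97.1 CPM in controls (SD, n = 3), with log2 fold changes of 0.05 in row_RNAi1 and -0.04 in row_RNAi2 and no call. Obp56f and Obp51a were not tested, with 21, 24 and 17 counts of Obp56f and 2, 0 and 1 of Obp51a in row_RNAi1, row_RNAi2 and control libraries.

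Of the members with no assigned place, Obp56h and Obp18a were the most counted. Obp56h, which affects mating behaviour when knocked down, had 88.3 and 77.5 CPM in row_RNAi1, 83.2, 75.5 and 75.8 CPM in row_RNAi2, and 59.8, 65.4 and 71.7 CPM in controls and rose in row_RNAi1, at 0.34 (SE 0.09, edgeR quasi-likelihood adjusted p = 0.0152). It was at 0.24 without row_RNAi1 replicate 1 (edgeR adjusted p = 0.242) and 0.27 without control replicate 1 (0.0643), and row_RNAi2 was at 0.25 (adjusted p = 0.0854), where it was called without control replicate 3 (0.0193). Obp18a averaged 157 ± 10.8 CPM in row_RNAi1 (SD, n = 2), 161 ± 19.5 CPM in row_RNAi2 (SD, n = 3) and 137 ± 6.97 CPM in controls (SD, n = 3), and was called in neither line, but without row_RNAi2 replicate 3 it was called higher in row_RNAi2 (edgeR adjusted p = 0.0205). Obp56a and Obp99d were at 0.29 and -0.29 in row_RNAi1 and 0.29 and 0.11 in row_RNAi2, with no call.

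The 11 untested members held 1 to 62 counts over all 8 libraries. Besides Obp51a, Obp56f, Obp57e and Obp59a, these were Obp47a, Obp50a, Obp50e, Obp56b, Obp56c, Obp58b and Obp93a. Such totals limit what can be read of these genes. With no low-count filter, Obp59a was called in the mean of both lines, although its knockdown libraries overlapped the controls. No other of the 11 was called in any comparison.

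Genes of other small carrier families, which also bind lipids or hydrophobic ligands, showed calls both ways. Of 9 tested, 2 rose and 3 fell in row_RNAi1, and 2 fell in row_RNAi2, where 21.2% and 10.8% of all tested genes were called. Npc2h, a sterol-binding family member, fell in both lines (-0.54 in row_RNAi1 and -0.75 in row_RNAi2, edgeR adjusted p = 8.69e-05 and 1.44e-06). Phk-3, a chemosensory protein gene, rose in row_RNAi1 (0.42, edgeR adjusted p = 0.00335) and was at 0.16 (adjusted p = 0.330) in row_RNAi2.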

How the data were processed

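Heads of Drosophila melanogaster were profiled by 3′ RNA-seq in 8 libraries. The authors deposited raw counts, whole numbers of reads per gene symbol, and the submitters' processing notes name STAR and dm3 without versions. For the counting program, annotation, strand use and molecular identifiers, nothing is given in the sources used here. Symbols are as deposited, and 7 members have another member's symbol among their Release 6 synonyms. Arms, neighbours and overlaps come from the gene coordinates of Release 6.

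Tests used edgeR 4.0.16 in R 4.3.3. The model with 3 groups took in all 8 libraries, with TMM scaling (factors 0.921 to 1.09) and filterByExpr, which left 9442 genes, and quasi-likelihood F tests used Benjamini-Hochberg adjustment over them all with a threshold of 0.05. The fit was tested on simulated data. CPM use the TMM-scaled totals. Group means carry the SD over libraries, and counting intervals are 95%. Alternatives were RLE scaling, no filter, a mean of at least 5 CPM, a replicate block, DESeq2 1.42.0, limma 3.58.1 with voom, each library left out, 2-group fits and the knockdown libraries as 1 group. Leaving out control replicate 2 and row_RNAi1 replicate 1 together was chosen after seeing the data. Where a row_RNAi1 library is left out, the 1 kept is assumed to vary like the other groups.

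Members and gene lists were chosen with earlier results of these data known. Named genes are all members, lush, row, the antenna markers with at least 5 CPM on average, up to 4 members of every other list with the smallest p in the mean of both lines, and roX1, roX2, Yp1, Yp2, Yp3, fit and to. Os-C, a5 and Orco were named after their values were seen.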

Additional observations from a re-analysis of the deposited data

Results flagged for a closer look

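The response of 6 of 29 tested members differed between the lines by the test of the difference itself, row_RNAi2 minus row_RNAi1. In that comparison 11.3% of all tested genes were called. Obp99a differed by 2.62 on the log2 scale (edgeR quasi-likelihood adjusted p = 5.66e-07), with a rise in row_RNAi2 and no call in row_RNAi1. Obp19c differed by 2.75 (edgeR adjusted p = 5.59e-05) and Obp44a by 0.85 (adjusted p = 6.14e-07), and both had fallen further in row_RNAi1. Obp8a differed by 0.88 (edgeR adjusted p = 0.00760), and 0.77 without row_RNAi1 replicate 1 (adjusted p = 0.108). Obp99b differed by -1.10 (edgeR adjusted p = 0.000419) and Obp28a by -0.69 (adjusted p = 0.00650), both lower in row_RNAi2, and Obp28a was at -0.42 without row_RNAi1 replicate 2 (adjusted p = 0.191).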

How the results depend on the processing

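Of 1654 values of 105 results under another setting, 1476 kept their direction and call or stayed within the tolerance. Of the rest, 74 kept their direction but lost a call, 74 kept it and gained a call, and 30 changed sign. Leaving out single libraries, called members ranged over 11 to 16 in row_RNAi1, 10 to 14 in row_RNAi2, 13 to 17 on average and 5 to 9 between the lines. The count on average was 9, in place of 16, with all knockdown libraries as 1 group, where 8.89% of all tested genes were called. Between the lines it was 15 without a low-count filter and 10 with limma voom, in place of 6, where 9.47% and 12.7% of all tested genes were called. Control replicate 2 and row_RNAi1 replicate 1 were left out together after their low antennal levels were seen. That fit keeps 1 row_RNAi1 library, and antennal calls gained there follow from the choice, so its counts are not given. With a replicate block the counts were 13, 13, 15 and 8, where 19.2%, 9.94%, 16.5% and 10.5% of all tested genes were called. Same-numbered samples correlated at -0.11 to 0.07 in their deviations from group means, and differently numbered samples of other groups at -0.11 to 0.08. With 2 or 3 libraries per group such deviations are tied to each other, so the check cannot exclude pairing. Adding Obp19d and Obp56d to the antennal members gave sums of 1838 CPM in row_RNAi1, 1996 CPM in row_RNAi2 and 2500.5 CPM in controls, as those 2 genes are abundant, and unscaled totals gave 7980 CPM for the other members in row_RNAi1, against 8497 CPM. The cause of the other changes was not tested. All changes of sign were in contrasts with no call in the main analysis. Over single libraries left out, in row_RNAi1 Obp56e ran over -0.05 to 0.15, Obp57a -0.006 to 0.076, Obp69a -1.03 to 0.28, Obp83a -5.61 to 0.11, Obp83b -5.23 to 0.56, Obp83g -0.22 to 0.22, Obp84a -2.61 to 1.37 and Obp99d -0.81 to 0.083. In row_RNAi2 Obp56d ran over -0.094 to 0.011, Obp56e -0.12 to 0.074 and Obp99c -0.23 to 0.033, and between the lines Obp19a -6.68 to 0.69, Obp56h -0.18 to 0.008, Obp83a -4.37 to 1.35 and Obp83b -3.51 to 2.28. Without control replicate 2 and row_RNAi1 replicate 1, row_RNAi1 gave -0.053 for Obp56e, 0.14 for Obp69a, 0.262 for Obp83g and 0.035 for Obp99d, and the lines differed by 0.008 for Obp56h. In row_RNAi1, the replicate block gave -0.011 for Obp83g and 0.78 for Obp84a, and limma voom gave -0.003 for Obp83g and 0.18 for Obp84a. Members at a few counts per library are limited by depth.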
